A study of Homo sapiens with 15 samples.

Results

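Lysosomal peptidases were examined as a set of 10 genes in cells resistant to trastuzumab emtansine (T-DM1): the cathepsins CTSA, CTSB, CTSC, CTSD, CTSH, CTSL, CTSS and CTSZ, the asparaginyl endopeptidase LGMN and the tripeptidyl peptidase TPP1. The rule takes the listed symbols, because lysosomal proteolysis frees the payload of the conjugate, and uses no measured value, although the list was drawn up with earlier results of these data known. They are 10 of 14884 genes with a symbol in the deposited table. Each had 1 probe set, so no choice between probe sets of a gene was needed. RNA came from clone 1, clone 2, clone 3 and clone 6, each grown from 1 cell of a BT474 culture after prolonged T-DM1 exposure and then held in 5 nM of the drug for 3 months, and from the parental BT474 line, which is described as sensitive. BT474 is a line of human breast cancer cells in which the HER2 gene is amplified. Every group had 3 arrays, called biological replicates in the labels, so the 3 arrays of a clone are repeats of 1 line and not of resistance in general. Whether T-DM1 was present at harvest is not stated, and nothing says whether replicates came from separate cultures, so the p-values measure the spread between these arrays. No clone grown without selection was measured, so the effects of resistance, of cloning and of months in the drug cannot be told apart.

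T-DM1 is the antibody trastuzumab joined through a non-cleavable linker to DM1, a maytansinoid that disrupts microtubules. After binding HER2 and being taken into the cell, the antibody must be digested to amino acids in the lysosome before the drug, still carrying its linker and a lysine, can leave. The enzymes that digest proteins there work in concert. Endopeptidases cut chains internally, and exopeptidases remove residues or short peptides from either end. Most are made as inactive precursors, are carried to the lysosome by mannose 6-phosphate receptors and mature in its acid interior. CTSB, CTSC, CTSH, CTSL, CTSS and CTSZ are cysteine proteases of the papain family, CTSD is an aspartic protease, CTSA and TPP1 are serine peptidases, and LGMN is a cysteine protease of another family that helps to process cathepsin precursors.

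The arrays gave RMA log2 values whose correlation was 0.985 to 0.993 within groups and 0.975 to 0.991 between groups. The upper quartile of all values was 5.80 to 5.89 in clone arrays, against 5.94 to 5.96 in parental arrays. Of 7 luminal epithelial markers, 6 had a symbol and all of these passed the filter on dim probe sets, with a mean level of 8.69 to 9.22 in clone arrays and 9.38 to 9.42 in parental arrays. These markers did not move alike. GATA3 lay at 5.65 to 8.44 in clone arrays and at 8.98 to 9.22 in parental arrays. KRT18 lay at 9.95 to 10.54 in clone arrays and 10.54 to 10.69 in parental arrays, with a slight overlap. EPCAM was higher in clone arrays, at 10.54 to 10.92 against 10.33 to 10.34. The remaining markers overlapped as well, with KRT19 at 10.79 to 11.08 and 10.65 to 10.88. FOXA1 lay at 9.25 to 9.72 and 9.37 to 9.51, and KRT8 at 5.18 to 6.55 and 5.96 to 6.19. Of 7 leukocyte markers, which matter here because macrophages are rich in cathepsins, 4 had a symbol and 3 passed the filter, with a mean level of 4.18 to 5.03 in clone arrays and 4.24 to 4.37 in parental arrays. In RNA from whole cultures, fewer cells with a transcript and less transcript per cell cannot be told apart.

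CTSC and TPP1, which remove short peptides from the amino ends of proteins, were lower in all 4 clones, while the other members changed in some clones, in different directions or not past the test. The limma fit covered 12147 genes whose probe set exceeded the 40th percentile of its own array in at least 3 arrays, and a gene was called at a Benjamini-Hochberg adjusted p below 0.05 within a comparison. Of the 10 members, 9 were tested and each of these was above that limit in all 15 arrays. CTSS was above it in 0 of 15 arrays and was not tested. Against the parental line, 2 of 9 members were higher and 2 lower in clone 1, where 17.2% of all tested genes were called, 6.03% as higher and 11.2% as lower. Clone 2 also had 2 members higher and 2 lower (all genes 16.9%, 5.47% higher and 11.5% lower). Clone 3 had 0 higher and 4 lower (all genes 17.2%, 6.22% higher and 11% lower). In clone 6 the split was 1 higher and 4 lower (all genes 22.4%, 7.73% higher and 14.7% lower). With renewed quantile normalization the members split into 2 higher and 2 lower in clone 1, 3 and 2 in clone 2, 1 and 3 in clone 3, and 2 and 3 in clone 6. Under that scaling the calls over all genes were close to even, with 971 higher and 1056 lower in clone 1, 949 and 1037 in clone 2, 1032 and 1046 in clone 3, and 1330 and 1314 in clone 6. The median change of the 9 members was 0.09, 0.26, -0.37 and -0.18 in clones 1, 2, 3 and 6, against -0.02, -0.02, -0.00 and -0.02 over all tested genes. CTSC and TPP1 were the 2 members called lower in all 4 clones, as were 443 genes, 3.65% of those tested; 0 members were called higher in all 4, as were 126 genes (1.04%). Members whose clone arrays all lay on one side of all parental arrays numbered 7, 5, 6 and 6 of 9 in clones 1, 2, 3 and 6, where 36.6%, 36.5%, 38.9% and 40.7% of all tested genes did so. These 4 comparisons share the parental arrays. Between clones 1 and 2, 0 of the 12147 tested genes were called, so the agreement of these 2 clones may not count as separate observations.

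**Figure D1:**
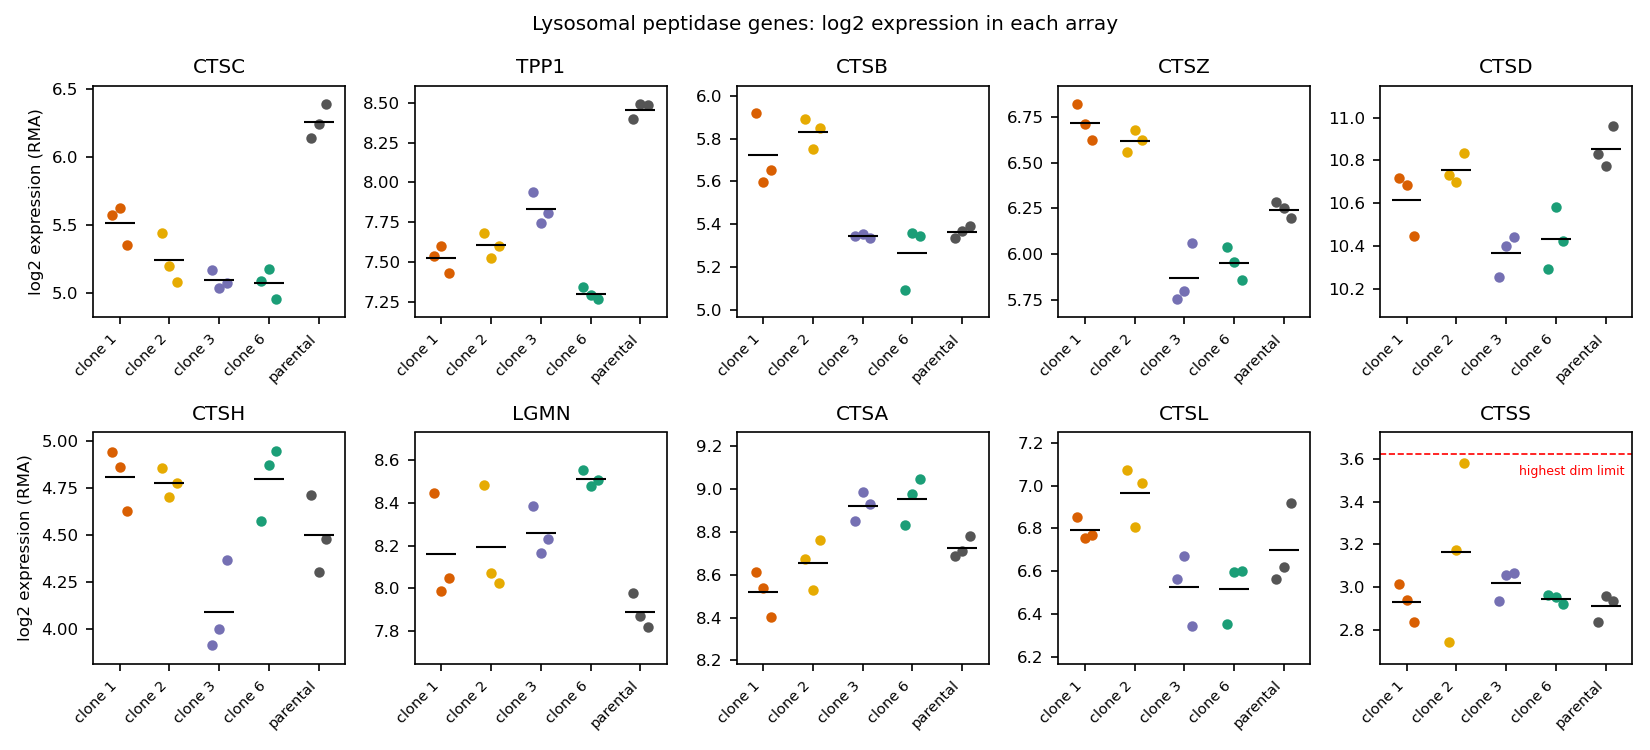
Log2 RMA expression (vertical axes, a separate scale for each gene) of the 10 lysosomal peptidase genes in every array, by clone and in the parental line on the right; points are arrays and bars are means of 3 arrays. CTSC and TPP1 lie below all parental arrays in all 4 clones, and the CTSS points lie under the highest dim limit of 3.62, drawn as a dashed line.

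CTSC, also called dipeptidyl peptidase I, removes dipeptides from amino ends and is known for activating the serine proteases stored in leukocyte granules. Its log2 level was 5.57, 5.62 and 5.35 in clone 1, 5.44, 5.20 and 5.08 in clone 2, 5.17, 5.03 and 5.08 in clone 3, and 5.09, 5.17 and 4.96 in clone 6, against 6.14, 6.24 and 6.39 in the parental line. All 12 clone arrays lay below all 3 parental arrays. The group means were 5.52 ± 0.14, 5.24 ± 0.18, 5.09 ± 0.07 and 5.07 ± 0.11 in clones 1, 2, 3 and 6 and 6.26 ± 0.12 in the parental line (SD, n = 3 each). The decrease was 1.67-fold in clone 1 (log2 change -0.74, SE 0.11, adjusted p = 0.000361) and 2.27-fold in clone 6 (-1.18, adjusted p = 2.64e-06), with clone 2 (-1.02, adjusted p = 2.22e-05) and clone 3 (-1.16, adjusted p = 5.53e-06) between. Ordered by mean from the highest, the groups were parental, clone 1, clone 2, clone 3 and clone 6, and the step from parental to clone 1 was the one that passed the test. Clone 1 had more CTSC than clone 3 (difference 0.42, adjusted p = 0.0163) and clone 6 (0.44, adjusted p = 0.0163). Those calls were lost without clone 1 replicate 1 or 2, the first also without clone 3 replicate 2 and the second without clone 6 replicate 3 (0.37 to 0.42); the second was lost as well in a fit to the 6 arrays compared (adjusted p = 0.0524). The 10 nearest tested genes around CTSC, 5 on each side in RefSeq gene order, changed by medians of 0.20, 0.13, 0.09 and 0.07 in clones 1, 2, 3 and 6, and 0 of them were called lower in any clone. Their lowest change was -0.49, in clone 6, for CHORDC1, a chaperone partner.

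TPP1 cleaves tripeptides from amino ends, and its loss causes a late infantile form of neuronal ceroid lipofuscinosis. It measured 7.54, 7.60 and 7.43 in clone 1, 7.68, 7.53 and 7.60 in clone 2, 7.94, 7.75 and 7.81 in clone 3, and 7.34, 7.29 and 7.27 in clone 6, against 8.40, 8.49 and 8.49 in the parental line (log2 levels). The highest clone array, at 7.94, was below the lowest parental array, at 8.40. Means were 7.52 ± 0.09, 7.60 ± 0.08, 7.83 ± 0.10 and 7.30 ± 0.04 in clones 1, 2, 3 and 6 and 8.46 ± 0.05 in the parental line (SD, n = 3 each). TPP1 was 2.23-fold lower in clone 6 (log2 change -1.16, SE 0.09, adjusted p = 2.75e-07) and 1.54-fold lower in clone 3 (-0.63, adjusted p = 0.000231). Clones 1 and 2 lay between, at -0.94 (adjusted p = 6.97e-06) and -0.86 (adjusted p = 1.4e-05). From the highest mean the order was parental, clone 3, clone 2, clone 1 and clone 6; the step from parental to clone 3 was called and the steps between neighbouring clones were not. Clone 3 exceeded clone 6 by 0.53 (adjusted p = 0.0013) and clone 1 by 0.31 (difference of clone 1 against clone 3 -0.31, adjusted p = 0.0264). The gap between clones 1 and 3 was not called without clone 1 replicate 3 (-0.26), clone 3 replicate 1 (-0.26) or clone 3 replicate 3 (-0.32), or in a fit to those 6 arrays. Clone 2 exceeded clone 6 by 0.30 (adjusted p = 0.0395), a call lost without clone 2 replicate 1 or 3 or any 1 clone 6 array (0.26 to 0.32), with renewed quantile normalization (0.29), with arrays centred on their medians (adjusted p = 0.0529) and in a fit to those 6 arrays.

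Genes beside TPP1 did not move alike on its 2 sides. The 5 nearest tested genes on the side of DNHD1 (HPX, TRIM3, ARFIP2, TIMM10B and DNHD1) had changes of -0.62 to -0.07 in clone 1, -0.71 to -0.07 in clone 2, -0.63 to -0.27 in clone 3 and -0.77 to -0.48 in clone 6. On the other side the nearest tested gene, the cadherin-family gene DCHS1, changed by 0.41, 0.29, 0.42 and 0.30 in clones 1, 2, 3 and 6. Of all 10 neighbours, 1 was called higher and 2 lower in clone 1, 1 and 2 in clone 2, 0 and 4 in clone 3, and 1 and 5 in clone 6. In clone 3 the change of TRIM3, -0.63, was as large as that of TPP1, whereas in clones 1, 2 and 6 TPP1 changed more than any of the 10. The part of the region in the TPP1 result was not tested.

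**Figure D2:**
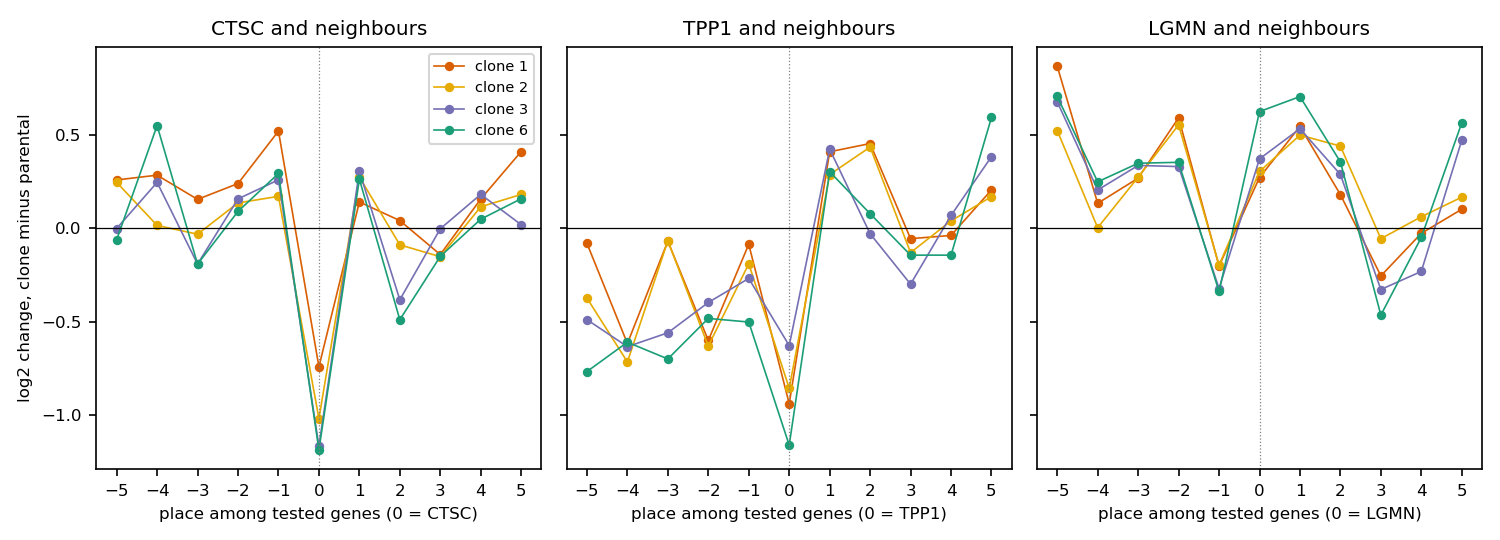
Log2 change of each clone minus the parental line (vertical axis) for CTSC, TPP1 and LGMN at place 0 and for the 5 nearest tested genes on each side in RefSeq gene order (horizontal axis, places not to scale); points are changes of group means and lines join the genes of a clone. The genes at places -5 to -1 beside TPP1 are all below 0 in the 4 clones, while those around CTSC have medians of 0.07 to 0.20.

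The sequences before the transcription starts of CTSC and TPP1, the 2 genes lower in all clones, are shown beside that of CTSA, a member that was not called in any clone and that carries the motif bound by TFEB, a transcription factor of lysosomal genes. They are the 250 bases before the start in RefSeq (build GRCh38.p14, gene orientation), at chr11:88337737-88337986 on the minus strand for CTSC, chr11:6619423-6619672 on the minus strand for TPP1 and chr20:45891085-45891334 on the plus strand for CTSA. Capitals mark TCACGTG, the core of the TFEB motif, or TCACATG, which differs from it by 1 letter, on either strand.
CTSC: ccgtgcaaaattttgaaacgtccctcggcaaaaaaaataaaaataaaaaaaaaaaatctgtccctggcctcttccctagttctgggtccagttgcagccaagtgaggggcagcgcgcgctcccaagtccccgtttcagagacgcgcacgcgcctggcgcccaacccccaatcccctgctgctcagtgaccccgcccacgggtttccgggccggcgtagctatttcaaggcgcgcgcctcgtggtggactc
TPP1: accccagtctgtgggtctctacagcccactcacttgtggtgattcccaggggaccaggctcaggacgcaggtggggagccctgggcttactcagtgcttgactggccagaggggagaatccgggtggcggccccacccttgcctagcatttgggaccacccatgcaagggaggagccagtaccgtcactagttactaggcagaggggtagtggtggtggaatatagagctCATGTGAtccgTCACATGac
CTSA: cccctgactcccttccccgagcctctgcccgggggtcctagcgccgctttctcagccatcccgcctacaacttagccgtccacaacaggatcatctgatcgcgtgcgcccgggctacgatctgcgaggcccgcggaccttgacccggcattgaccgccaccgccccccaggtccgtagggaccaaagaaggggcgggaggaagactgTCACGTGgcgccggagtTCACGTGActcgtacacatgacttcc

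The core TCACGTG was searched on both strands with overlapping matches merged, and 3.31% of 35116 RefSeq promoters of this length held it. Among the 7 members with an entry it was found in 2. CTSA held it at 43 to 37 and at 26 to 19 bases before the start, and CTSD at 47 to 41. Unlike CTSA, CTSD was called lower in clones 3 and 6 (log2 change -0.49 and -0.42), and its sequence is not shown. TCACATG was in 2.90% of promoters and, among the members, in that of TPP1, at 20 to 14 and at 9 to 3 bases before the start. Neither string was in the window of CTSC. Other strings that differ from the core by 1 letter were not searched, so 2.90% is the share for TCACATG alone. CTSB, CTSS and LGMN had no entry. A match is a description of letters and not of binding.

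CTSH removes single residues from amino ends. Its level was 4.94, 4.86 and 4.63 in clone 1, 4.86, 4.70 and 4.78 in clone 2, 3.91, 3.996 and 4.37 in clone 3, and 4.58, 4.87 and 4.95 in clone 6, against 4.71, 4.30 and 4.48 in the parental line. Every clone overlapped the parental arrays, clone 3 from below and the other 3 from above. No change against the parental line was called: it was 0.31 in clone 1 (adjusted p = 0.153), 0.28 in clone 2 (adjusted p = 0.197), -0.41 in clone 3 (95% interval -0.71 to -0.11, adjusted p = 0.0583) and 0.30 in clone 6 (adjusted p = 0.149), with an SE of 0.14. The clone 3 value was called without clone 3 replicate 3 (-0.55, adjusted p = 0.0211), without parental replicate 2 (-0.51, adjusted p = 0.0475), with a stricter filter (adjusted p = 0.0484) and with array weights (adjusted p = 0.025), and weights also gave calls in clones 1 and 6 (adjusted p = 0.0312 and 0.0325). Set against one another, the clones did differ. Clone 3 had less CTSH than clone 1 (difference of clone 1 against clone 3 0.72, adjusted p = 0.00214), clone 2 (clone 2 against clone 3 0.69, adjusted p = 0.00314) and clone 6 (clone 3 against clone 6 -0.71, adjusted p = 0.00454). All 3 of its arrays, 3.91 to 4.37, lay below the other 9 clone arrays, 4.58 to 4.95. From the highest mean the order was clone 1, clone 6, clone 2, parental and clone 3, with no step between neighbours in that order called. Around CTSH, 0 of the 10 nearest tested genes were called higher and 4 lower in clone 3. In clones 1, 2 and 6, 1 was called higher and 1 lower in each. Their median changes were -0.05, -0.05, -0.19 and -0.01 in clones 1, 2, 3 and 6. In the same clone order, the adjacent MORF4L1 was at -0.08, -0.07, -0.50 and -0.26, and RASGRF1 at -0.92, -0.77, -0.87 and -1.33. The part of the region in the CTSH result was not tested.

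CTSZ, a carboxypeptidase that removes single residues, was higher in clones 1 and 2 and lower in clones 3 and 6. Its arrays gave 6.82, 6.71 and 6.62 in clone 1, 6.56, 6.68 and 6.62 in clone 2, 5.76, 5.80 and 6.06 in clone 3, and 6.04, 5.96 and 5.86 in clone 6, against 6.28, 6.25 and 6.20 in the parental line. No clone overlapped the parental arrays, which formed a band between both pairs of clones. The means were 6.72 ± 0.10, 6.62 ± 0.06, 5.87 ± 0.16 and 5.95 ± 0.09 in clones 1, 2, 3 and 6 and 6.24 ± 0.04 in the parental line (SD, n = 3 each). Clone 1 rose by 0.47 (adjusted p = 0.00395) and clone 2 by 0.38 (adjusted p = 0.0166), while clone 3 changed by -0.37 (adjusted p = 0.0179) and clone 6 by -0.29 (adjusted p = 0.0473), with an SE of 0.10. The contrast between the pairs was larger than any of these: clone 1 exceeded clone 3 by 0.84 (adjusted p = 3.21e-05) and clone 6 by 0.76 (adjusted p = 0.00012), and clone 2 exceeded them by 0.75 (adjusted p = 0.000102) and 0.67 (adjusted p = 0.00044). These 4 calls held in every alternative tried. By mean from the highest, the order was clone 1, clone 2, parental, clone 6 and clone 3, and the steps on either side of the parental line were the called ones. The clone 2 call was lost without clone 2 replicate 2 or parental replicate 3 (both 0.35), and the clone 3 call without clone 3 replicate 1 (-0.31) or 2 (-0.33), without parental replicate 1 (-0.35) or 2 (-0.37), or with renewed quantile normalization (-0.29, adjusted p = 0.0674). The clone 6 call was lost in 10 of 16 alternatives, among them renewed quantile normalization (-0.17, adjusted p = 0.293), no filter (adjusted p = 0.0517), trend and robust settings (adjusted p = 0.0604), and leaving out clone 6 replicate 2 or 3 or any 1 parental array (-0.31 to -0.25).

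CTSB, which acts both as an endopeptidase and as a carboxydipeptidase, shared the rise of CTSZ in clones 1 and 2 but not its fall. It measured 5.92, 5.60 and 5.65 in clone 1, 5.89, 5.75 and 5.85 in clone 2, 5.35, 5.35 and 5.34 in clone 3, and 5.09, 5.36 and 5.34 in clone 6, against 5.34, 5.37 and 5.39 in the parental line. The arrays of clones 1 and 2 were all above the parental ones, and those of clones 3 and 6 overlapped them. CTSB rose by 0.36 in clone 1 (adjusted p = 0.0245) and by 0.46 in clone 2 (adjusted p = 0.00535), and its changes of -0.02 in clone 3 (adjusted p = 0.928) and -0.10 in clone 6 (adjusted p = 0.543) were not called, with an SE of 0.10. Clone 2 exceeded clone 6 by 0.57 (adjusted p = 0.0018) and clone 3 by 0.48 (adjusted p = 0.0041), and clone 1 exceeded clone 6 by 0.46 (adjusted p = 0.00741) and clone 3 by 0.38 (adjusted p = 0.0185). The last difference was not called without clone 1 replicate 1 (0.28) or clone 3 replicate 3 (0.37), and neither difference of clone 1 was called in a fit to the 6 arrays compared (adjusted p = 0.0613 against clone 6 and 0.0622 against clone 3). Ordered from the highest mean, the groups were clone 2, clone 1, parental, clone 3 and clone 6, with the step from clone 1 to parental called and the others not. In clone 1 the rise lost its call without clone 1 replicate 1 or any 1 parental array (0.26 to 0.37).

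CD68, a lysosomal glycoprotein used as a macrophage marker, had levels of 7.17 to 8.71 in clone 1, 7.70 to 8.73 in clone 2, 5.95 to 6.18 in clone 3 and 7.24 to 8.003 in clone 6, against 6.06 to 6.45 in the parental line. It was high in clones 1 and 2, where CTSB and CTSZ were higher, and also in clone 6, where they were not. Of the other leukocyte markers with a symbol, CSF1R lay at 3.91 to 4.67 in clone arrays and 4.06 to 4.23 in parental arrays, CD14 at 3.33 to 3.94 and 3.36 to 3.67, and LYZ was above the dim limit in 1 array. The part of these markers in the CTSB and CTSZ results was not tested.

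CTSA, a serine carboxypeptidase that also shields the lysosomal sialidase NEU1 and beta-galactosidase from degradation, was not called against the parental line in any clone. The arrays read 8.61, 8.54 and 8.40 in clone 1, 8.67, 8.53 and 8.76 in clone 2, 8.85, 8.99 and 8.93 in clone 3, and 8.83, 8.98 and 9.05 in clone 6, against 8.69, 8.71 and 8.78 in the parental line. Clone 1 lay wholly below the parental arrays and clones 3 and 6 wholly above, while clone 2 overlapped. The changes were -0.21 in clone 1 (95% interval -0.42 to -0.00, adjusted p = 0.17), -0.07 in clone 2 (-0.28 to 0.14, adjusted p = 0.674), 0.20 in clone 3 (-0.01 to 0.41, adjusted p = 0.192) and 0.23 in clone 6 (0.02 to 0.44, adjusted p = 0.113). With renewed quantile normalization the clone 6 value was called (0.29, adjusted p = 0.0395), as it was with array weights (0.27, adjusted p = 0.0221). Directly compared, clone 1 had less CTSA than clone 3 (difference -0.41, adjusted p = 0.00885) and clone 6 (-0.44, adjusted p = 0.00738), in the opposite direction to CTSB, CTSZ and CTSC in the same pairs. By mean from the highest, the order was clone 6, clone 3, parental, clone 2 and clone 1, with no single step called. Its partner NEU1 rose in clone 6 by 0.40 (SE 0.11, adjusted p = 0.0145), a call lost without clone 6 replicate 3 (0.29) or parental replicate 3 (0.39), and was not called in clones 1, 2 and 3 (0.04, 0.17 and 0.26). GLB1, the gene of beta-galactosidase, was not analysed here.

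CTSD, the main lysosomal aspartic endopeptidase, was lower in clones 3 and 6. It read 10.72, 10.68 and 10.45 in clone 1, 10.73, 10.70 and 10.83 in clone 2, 10.26, 10.40 and 10.44 in clone 3, and 10.29, 10.58 and 10.43 in clone 6, against 10.83, 10.77 and 10.96 in the parental line. Clones 1, 3 and 6 lay below all parental arrays, and clone 2 overlapped them. CTSD changed by -0.49 in clone 3 (SE 0.11, adjusted p = 0.00487) and by -0.42 in clone 6 (adjusted p = 0.00941), where the call was lost without parental replicate 3 (-0.37, adjusted p = 0.0519). The values of -0.24 in clone 1 (adjusted p = 0.15) and -0.10 in clone 2 (adjusted p = 0.586) were not called. Between clones, clone 2 exceeded clone 3 by 0.39 (adjusted p = 0.0201), which was not called without clone 2 replicate 3 (0.35) or clone 3 replicate 1 (0.33), or in a fit to those 6 arrays (adjusted p = 0.0507). In the order parental, clone 2, clone 1, clone 6 and clone 3, from the highest mean, no step between neighbours was called.

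CTSL, a broad endopeptidase, was not called against the parental line in any clone. It gave 6.85, 6.76 and 6.77 in clone 1, 7.07, 6.81 and 7.01 in clone 2, 6.56, 6.67 and 6.34 in clone 3, and 6.35, 6.60 and 6.60 in clone 6, against 6.56, 6.62 and 6.92 in the parental line. All 4 clones overlapped the parental arrays. The changes were 0.09 in clone 1 (95% interval -0.17 to 0.35), 0.26 in clone 2 (0.01 to 0.52), -0.17 in clone 3 (-0.43 to 0.08) and -0.18 in clone 6 (-0.44 to 0.07), with adjusted p of 0.155 to 0.681, and that of clone 2 was called with renewed quantile normalization (0.37, adjusted p = 0.0383). Clone 2 exceeded clone 3 by 0.44 (adjusted p = 0.0209) and clone 6 by 0.45 (adjusted p = 0.0247). Both calls were lost without clone 2 replicate 1 or 3 and in fits to the arrays compared, the first also without clone 3 replicate 3 (0.35), and the second without clone 6 replicate 1 (0.36) and with array weights (0.38). Its order from the highest mean was clone 2, clone 1, parental, clone 3 and clone 6, and no single step was called. CTSS, the endopeptidase of class II antigen processing, lay at 2.74 to 3.58 in clone arrays and 2.84 to 2.96 in parental arrays, under a dim limit of 3.56 to 3.62. With CTSS below that limit throughout, no fold change is given.

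LGMN cuts after asparagine and matures several cathepsins. Its level was 8.45, 7.99 and 8.05 in clone 1, 8.48, 8.07 and 8.02 in clone 2, 8.38, 8.17 and 8.23 in clone 3, and 8.56, 8.48 and 8.51 in clone 6, against 7.98, 7.87 and 7.82 in the parental line. Every clone array was above every parental array, by a narrow margin in clone 1. LGMN rose by 0.62 in clone 6 (SE 0.13, adjusted p = 0.00302). The other values were 0.27 in clone 1 (95% interval -0.01 to 0.55, adjusted p = 0.191), 0.30 in clone 2 (0.02 to 0.59, adjusted p = 0.136) and 0.37 in clone 3 (0.09 to 0.65, adjusted p = 0.0684), none of them called. The clone 3 value was called with renewed quantile normalization (0.44, adjusted p = 0.0403), in a fit to the 6 arrays compared (adjusted p = 0.026), with array weights (adjusted p = 0.0223) and with trend and robust settings (adjusted p = 0.0491). From the highest mean the order was clone 6, clone 3, clone 2, clone 1 and parental, with no step called. Clone 1 differed from clone 6 by -0.35 (adjusted p = 0.103); with the replicate number as a block, where same-numbered arrays of these clones deviated together, the adjusted p was 0.0323. That difference was also called without clone 1 replicate 1 (-0.49, adjusted p = 0.024) and with array weights (-0.44), and the one between clones 2 and 6 without clone 2 replicate 1 (-0.47, adjusted p = 0.0345). Of the 10 nearest tested genes, 3 were called higher and 0 lower in clone 1, 2 and 0 in clone 2, 3 and 1 in clone 3, and 3 and 1 in clone 6, with median changes of 0.16, 0.22, 0.31 and 0.35. The adjacent tested genes differed in sign: GOLGA5, a Golgi protein gene on one side, was at 0.54, 0.50, 0.53 and 0.70 in clones 1, 2, 3 and 6, and RIN3, a Rab5 regulator gene on the other side, was at -0.20, -0.20, -0.32 and -0.34. The part of the region in the LGMN result was not tested.

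**Figure D3:**
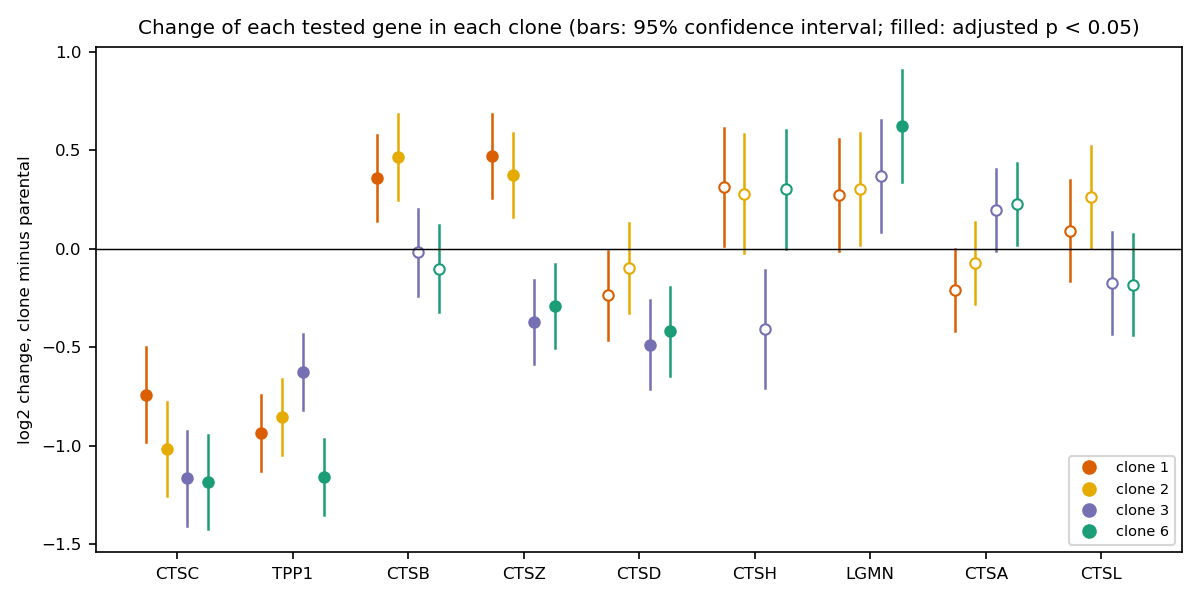
Log2 change of the 9 tested members (horizontal axis) in each clone minus the parental line (vertical axis); bars are 95% confidence intervals and filled points have an adjusted p below 0.05. CTSC and TPP1 are filled and below 0 in all 4 clones, and CTSZ is filled above 0 in clones 1 and 2 and below 0 in clones 3 and 6.

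Differences among the clones were then counted. A moderated F test over the 4 clones called 8 of 9 members, where 22.5% of all tested genes were called, and LGMN was the exception (adjusted p = 0.185). Adjusted p was 1.29e-05 for CTSZ, 0.00125 for CTSB, 0.00231 for CTSH, 0.00289 for TPP1, 0.00712 for CTSA, 0.0243 for CTSC, 0.0254 for CTSL and 0.0416 for CTSD. Clones 1 and 2 were not told apart by any member: limma called 0 of 9, and CTSC alone had an unadjusted p below 0.05 (difference 0.28). Over all genes that pair had 0 calls (0%) and 807 genes with an unadjusted p below 0.05.

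In the pairs that set clones 1 and 2 against clones 3 and 6, most called members were higher in clone 1 or 2. Clone 1 had 4 members higher and 2 lower than clone 3 (all genes called 16.8%, 8.15% higher and 8.65% lower) and 3 higher and 1 lower than clone 6 (all genes 12.7%, 7.07% higher and 5.61% lower). The lower ones were CTSA in both pairs and TPP1 against clone 3. Clone 2 had 5 higher and 0 lower than clone 3 (all genes 15.8%, 6.96% higher and 8.79% lower) and 4 higher and 0 lower than clone 6 (all genes 11.2%, 5.69% higher and 5.47% lower). CTSB and CTSZ were called in each of these 4 pairs. Clone 3 had 1 member higher, TPP1, and 1 lower, CTSH, than clone 6 (all genes 9.01%, 4.96% higher and 4.06% lower). Without clone 2 replicate 3, clone 2 had 3 members called against clone 3 and 2 against clone 6. Leaving out any 1 array of clones 1 and 3, 4 to 5 members were called between them, against 6 with all arrays.

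**Figure D4:**
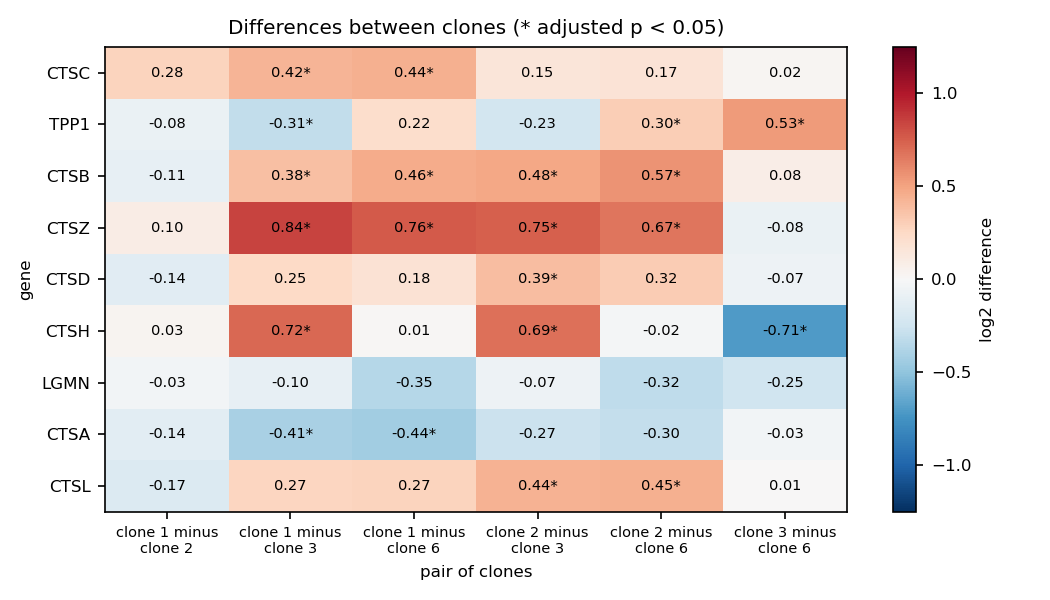
Log2 difference of each tested member (rows) between each pair of clones (columns, first clone minus second), as colour and printed value; an asterisk marks an adjusted p below 0.05. CTSZ has the largest difference, 0.84 between clones 1 and 3, and the column for clones 1 and 2 has no asterisk.

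Other genes had mean profiles close to those of the members over the 5 groups. Likeness was measured as the root mean square difference of 5 group means, each gene centred on its own mean, over all tested genes, and is a description of the group means with no test. For CTSC the closest were the transcription factor gene SP2 (0.08 on the log2 scale), the DNA glycosylase gene NEIL1 (0.09) and MIR543 (0.10), where the median over all genes was 0.46. For TPP1 they were SCMH1 (0.06), FOXJ2 (0.06) and CNIH2 (0.07), against a median of 0.41. CTSZ was closest to SAMHD1 (0.05), a dNTP hydrolase gene, ZBTB10 (0.05) and LINGO1 (0.06), with a median of 0.37. SAMHD1 changed by 0.33 and 0.27 in clones 1 and 2 and by -0.46 and -0.42 in clones 3 and 6. CTSB lay closest to NUDT8, KBTBD3 and MRPL42P5, CTSH to CPNE7, AIG1 and CLPX, CTSD to ZNF443, CYC1 and SYNJ2, CTSA to TMEM219, TPI1P2 and PRMT7, CTSL to QPCTL, SPAG5 and DRP2, and LGMN to MIR584, MIR4692 and CBY3, each within 0.05 of the member's profile. No member was among the 3 genes closest to another member.

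Genes that deliver enzymes to the lysosome were examined next, from lists of the same pathway that are compared with all genes only by their counts. Of 27 delivery genes, 11 were tested, with 1 higher and 1 lower in clone 1, 1 and 1 in clone 2, 2 and 1 in clone 3, and 3 and 2 in clone 6. The share called was 18.2%, 18.2%, 27.3% and 45.5% in clones 1, 2, 3 and 6, against 17.2%, 16.9%, 17.2% and 22.4% of all tested genes, so that in clones 1 and 2 it was near the background. IGF2R, the cation-independent mannose 6-phosphate receptor that carries tagged enzymes from the Golgi, read 8.77, 9.003 and 8.95 in clone 1, 8.89, 9.09 and 9.14 in clone 2, 8.48, 8.42 and 8.40 in clone 3, and 8.80, 8.85 and 9.01 in clone 6, against 8.30, 8.33 and 8.18 in the parental line. It lay above all parental arrays in every clone and rose by 0.64, 0.77 and 0.62 in clones 1, 2 and 6 (SE 0.10, adjusted p = 0.000478, 9.41e-05 and 0.000386), with 0.16 in clone 3 (adjusted p = 0.307). NAGPA, which uncovers the mannose 6-phosphate tag, rose by 0.82 in clone 3 and 0.48 in clone 6 (SE 0.17, adjusted p = 0.00291 and 0.0486). VPS35, of the retromer that recycles the receptor, rose by 0.35 in clone 3 and 0.37 in clone 6 (SE 0.10). HGS, of the endosomal sorting complex, changed by -0.54, -0.47, -0.43 and -0.51 in clones 1, 2, 3 and 6 (SE 0.13) and was called in all 4. The NAGPA call in clone 6 was lost without clone 6 replicate 2 or 3 or any 1 parental array (0.36 to 0.53). It was also lost in a fit without the filter on dim probe sets and, separately, with median centring. The VPS35 call was lost in clone 3 without any 1 of its 6 arrays, and in clone 6 without clone 6 replicate 3. HGS lost its call without clone 1 replicate 3 (-0.43) and clone 6 replicate 1 (-0.34) in those clones, without clone 2 replicate 2 or 3 or any 1 parental array in clone 2, without any 1 of 6 arrays in clone 3, and in both with renewed quantile normalization.

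Among inhibitors of cysteine cathepsins, CST3 was higher in clones 1 and 2 than in clones 3 and 6. It encodes cystatin C, a secreted protein, and its level was 10.30, 10.05 and 10.18 in clone 1, 10.37, 10.06 and 10.16 in clone 2, 9.18, 9.08 and 9.11 in clone 3, and 9.14, 8.84 and 8.97 in clone 6, against 9.19, 9.23 and 9.34 in the parental line. Clones 1 and 2 lay above all parental arrays and clones 3 and 6 below them. CST3 rose 1.90-fold in clone 1 (0.92, SE 0.11, adjusted p = 3.95e-05) and 1.92-fold in clone 2 (0.94, adjusted p = 3.16e-05), with -0.13 in clone 3 (adjusted p = 0.462) and -0.27 in clone 6 (adjusted p = 0.092). Clone 1 exceeded clones 3 and 6 by 1.06 and 1.19, and clone 2 exceeded them by 1.07 and 1.21, all 4 called, in the same pairs in which CTSB and CTSZ were higher.

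Of 16 inhibitors on the list 8 were tested, with 2 higher and 2 lower in clone 1, 3 and 1 in clone 2, 0 and 0 in clone 3, and 1 and 1 in clone 6, a share of 50%, 50%, 0% and 25% (all tested genes 17.2%, 16.9%, 17.2% and 22.4%). Over the 7 of them above the dim limit in all arrays, which leaves out CSTA, the counts were 1 and 2, 2 and 1, 0 and 0, and 0 and 1. CST4, a salivary-type cystatin, changed by -1.24, -1.09 and -1.52 in clones 1, 2 and 6 (SE 0.15, adjusted p = 3.61e-05, 0.000103 and 2.64e-06), against 0.38 in clone 3 (adjusted p = 0.0832). CSTA, an intracellular cystatin, passed the filter through 3 arrays, 2 of clone 1 and 1 of clone 2, and was under the dim limit in all arrays of clones 3 and 6 and of the parental line, so no change is given for it. CST2, another salivary-type cystatin, rose by 0.58 in clone 2 (SE 0.15, adjusted p = 0.0107), a call lost without clone 2 replicate 1 or parental replicate 2. CSTB, the intracellular cystatin B, fell by 0.55 in clone 1 (SE 0.10, adjusted p = 0.00125) and was at -0.28, -0.18 and -0.25 in clones 2, 3 and 6, not called.

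Of 42 other soluble lysosomal proteins, most of them hydrolases, 17 were tested. In clones 1, 2, 3 and 6 the calls were 2 higher and 2 lower, 2 and 1, 2 and 2, and 6 and 2. Median changes were 0.04, 0.17, 0.09 and 0.16. Among the higher calls were activator proteins that are no hydrolases, PSAP in clones 2 and 6 and GM2A in clones 3 and 6. The shares were 23.5%, 17.6%, 23.5% and 47.1% in clones 1, 2, 3 and 6 (all tested genes 17.2%, 16.9%, 17.2% and 22.4%). GALC, the galactosylceramidase lost in Krabbe disease, rose in all 4 clones, by 0.65, 0.71, 0.41 and 0.40 in clones 1, 2, 3 and 6 (SE 0.10, adjusted p = 0.00049, 0.000239, 0.0124 and 0.01). RNASET2, a lysosomal ribonuclease, rose by 0.42 in clone 1 and 0.88 in clone 6. ARSA, the sulfatase lost in metachromatic leukodystrophy, changed by -0.38 in clone 1 and -0.60 in clone 3, and IDS, another sulfatase, by -0.57 in clone 3 and -0.47 in clone 6. Calls were lost for GALC without parental replicate 2 in clones 3 and 6 (both 0.36) or clone 3 replicate 2, and for IDS in clone 6 without clone 6 replicate 3 or parental replicate 1 or with renewed quantile normalization (-0.34). In clone 1 the RNASET2 call was lost without any 1 of its 6 arrays or with median centring, and the ARSA call in a fit to those 6 arrays or without clone 1 replicate 1 or 3 or parental replicate 2 or 3 (-0.36 to -0.28). LAMP1, a membrane protein of lysosomes that is no hydrolase, changed by 0.00, 0.11, 0.05 and 0.04 (SE 0.09) and was not called.

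Of 14 genes listed as further lysosomal peptidases 12 were tested, among them NAAA, which is not a peptidase. Clones 1 and 2 had 0 higher and 1 lower, which was NAAA, and clones 3 and 6 had 1 higher and 2 lower. Median changes were 0.12, 0.01, 0.06 and 0.09 in clones 1, 2, 3 and 6. The shares called were 8.33%, 8.33%, 25% and 25% (all tested genes 17.2%, 16.9%, 17.2% and 22.4%). NAAA, an amidase made as a precursor that cuts itself, changed by -0.40, -0.42, -0.39 and -0.56 and was called lower in all 4 clones (SE 0.11). CTSF, a cathepsin of the papain family, rose by 0.66 in clone 3 and 0.45 in clone 6 (SE 0.15), in which CTSD and CTSZ were lower. SCPEP1, a serine carboxypeptidase, changed by -0.42 in clone 3 and PRCP, which removes a residue after proline, by -0.32 in clone 6. The NAAA calls were lost without parental replicate 3 in clones 1, 2 and 3, without clone 1 replicate 2 in clone 1, and without clone 3 replicate 1 or parental replicate 2 in clone 3 (-0.39 to -0.32). CTSF in clone 6 was not called without clone 6 replicate 1 or 3 or parental replicate 2 or 3, SCPEP1 without clone 3 replicate 1 or 3 or any 1 parental array, and PRCP without clone 6 replicate 1 or 2 or parental replicate 1 or 2.

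TPP1 and CTSD are both genes of neuronal ceroid lipofuscinosis, a group of lysosomal storage diseases, and 8 of 13 such genes were tested, these 2 included. The split was 0 higher and 4 lower in clone 1, 0 and 2 in clone 2, 2 and 2 in clone 3, and 1 and 3 in clone 6, a share of 50%, 25%, 50% and 50% (all tested genes 17.2%, 16.9%, 17.2% and 22.4%) in which the calls of both members count. Besides TPP1, CTSD and CTSF, KCTD7 changed by -0.57 and -0.49 in clones 1 and 2 and by 0.57 in clone 3 (SE 0.13). The thioesterase gene PPT1 changed by -0.31 in clone 1 and -0.28 in clone 6, and GRN, the progranulin gene, by -0.44 in clone 1. The KCTD7 call in clone 2 was lost without clone 2 replicate 1 or parental replicate 1 and with renewed quantile normalization (-0.40). PPT1 and GRN were not called without clone 1 replicate 2 or 3 or any 1 parental array in clone 1, and PPT1 not without clone 6 replicate 1 or 2 or any 1 parental array in clone 6. Renewed quantile normalization also ended both PPT1 calls and those of SCPEP1 and PRCP.

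CTSC and CTSS are best known from immune cells. Of 12 granule proteases that CTSC activates 5 were tested. The share called was 0%, 20%, 0% and 20% in clones 1, 2, 3 and 6 (all tested genes 17.2%, 16.9%, 17.2% and 22.4%). It was thus near or below the background in each clone. The same 1 gene was called higher in clones 2 and 6, and 0 were called in clones 1 and 3. It was AZU1 (0.37 in clone 2 and 0.32 in clone 6, SE 0.11), a member of the granule protease family without catalytic activity; its calls were lost without any 1 clone 6 or parental array in clone 6, and without any 1 clone 2 array or parental replicate 1 or 3 in clone 2. The 13 genes of class II antigen processing, where CTSS acts, were without a symbol in the annotation and were left out.

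Of 22 regulators of lysosomal gene transcription 16 were tested, with 1 higher and 2 lower in clone 1, 1 and 1 in clone 2, 3 and 1 in clone 3, and 0 and 2 in clone 6. The shares called, 18.8%, 12.5%, 25% and 12.5%, were near or below the background in clones 1, 2 and 6 (all tested genes 17.2%, 16.9%, 17.2% and 22.4%). RRAGD, a GTPase that recruits TFEB and TFE3 to lysosomes, rose by 1.19 in clone 1 and 0.99 in clone 2 (SE 0.18, adjusted p = 0.000364 and 0.00152), with 0.48 and 0.41 in clones 3 and 6, not called. TFE3 itself, a relative of TFEB, changed by -0.41, -0.42 and -0.39 in clones 1, 2 and 6, with calls lost under renewed quantile normalization (-0.32, -0.31 and -0.26), without parental replicate 2, and without clone 1 replicate 1, clone 2 replicate 3 and clone 6 replicate 1 in those clones. MYC, which opposes TFEB at lysosomal genes, changed by -1.30, -1.74 and -1.49 in clones 1, 3 and 6 (SE 0.31), with parental arrays at 6.80, 7.82 and 6.66. Its change of -0.86 in clone 2 was not called (adjusted p = 0.064). FNIP1, a partner of folliculin in nutrient sensing at lysosomes, rose by 0.48 in clone 3 (SE 0.11, adjusted p = 0.0066).

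**Figure D5:**
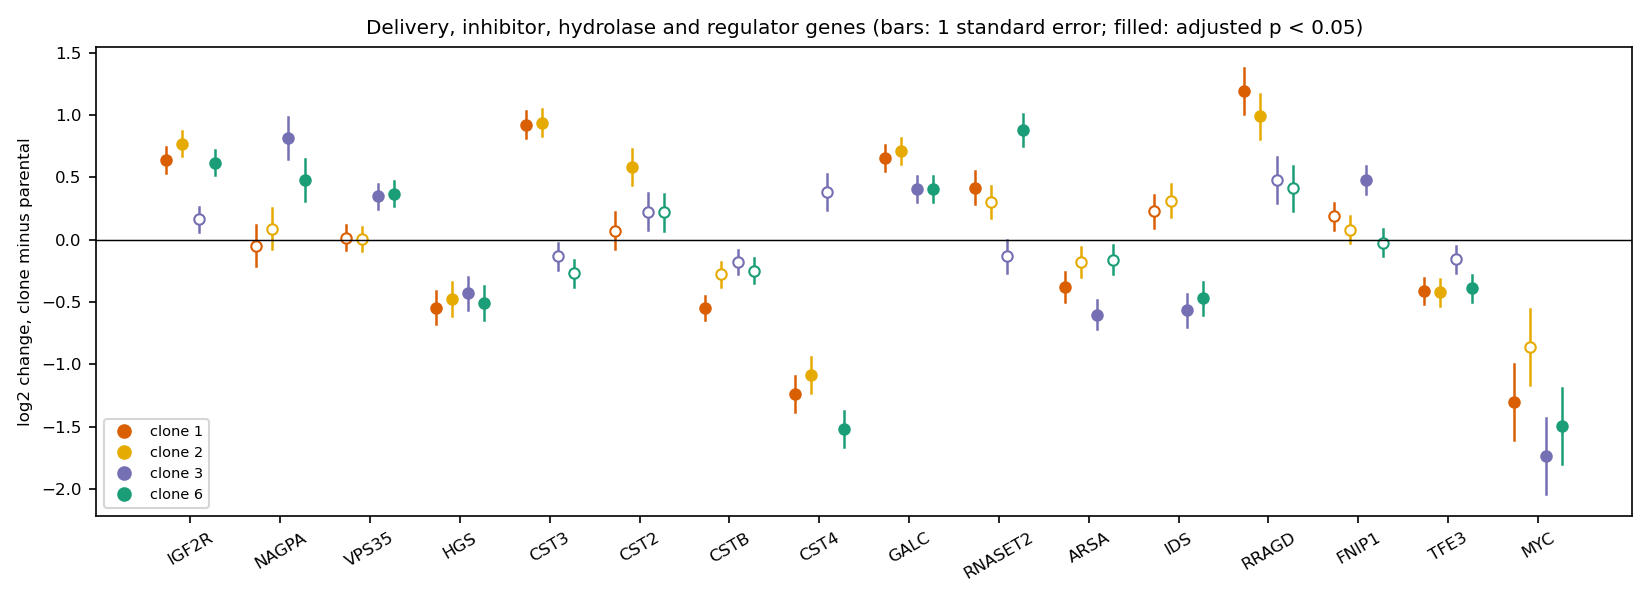
Log2 change (vertical axis) in each clone minus the parental line for genes of enzyme delivery (IGF2R to HGS), cathepsin inhibition (CST3 to CST4), other hydrolases (GALC to IDS) and transcriptional regulation (RRAGD to MYC); bars are 1 standard error and filled points have an adjusted p below 0.05. CST3 is filled and above 0.9 in clones 1 and 2 and open and below 0 in clones 3 and 6.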

How the data were processed

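Total RNA was measured on 15 Affymetrix gene arrays, 3 for each of 4 clones and the parental line. The authors deposited 53617 probe set values on the log2 scale in every array. The submitters' processing notes name RMA, Affymetrix Expression Console (version 1.4.1) and Transcriptome Analysis Console, and their order and roles are not given in the sources used here. Such processing with RMA is meant to make the arrays' distributions alike, and it compresses small changes near background. The upper quartiles still differed, at 5.80 to 5.89 in clone arrays and 5.94 to 5.96 in parental arrays. The number of arrays limits the precision.

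Symbols came from the platform annotation, updated through gene identifiers to RefSeq (GRCh38.p14), used for names and gene order; 16098 probe sets had 1 symbol, 0 several and 37519 none, the last not analysed here. Probe sets over the 40th percentile of an array in at least 3 arrays were kept, with the highest-mean probe set per symbol, leaving 12147 genes. limma 3.58.1 (R 4.3.3; lmFit, eBayes) fitted 1 mean per group to all 15 arrays (10 residual degrees of freedom), and Benjamini-Hochberg adjustment ran over all genes within a comparison. The steps were tested on simulated data. All members were named, with up to 4 called genes per list, ranked by clones called and then by size of change, plus CSTB, CST3, NEU1, GLB1 and LAMP1, and the 3 most alike genes per member. The members and lists were chosen with earlier results of these data known.

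Same-numbered arrays deviated together (correlation above 0.1 in each of 3 pairs) in 1 of 10 pairs of groups, clones 1 and 6 (0.221, 0.175 and 0.187), so the blocked fit is given beside a result there alone; the labels give no shared batch. Alternatives were other filters, renewed quantile normalization, median centring, the block, array weights, trend and robust eBayes, averaging a gene's probe sets, an adjusted p below 0.01, fits to the arrays compared, and leaving out each array; for list genes and list counts these were added after the data were seen. Figures used matplotlib 3.10.9 in Python 3.11.15.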

Additional observations from a re-analysis of the deposited data

Results flagged for a closer look

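For 8 of the 9 tested members the change differed among the 4 clones by limma's F test, which called 22.5% of all tested genes. Leaving out 1 clone array, that test called 6 to 8 members. The largest difference between 2 clones is given for each of the 8. For CTSZ it was 0.84 between clones 1 and 3, for CTSH 0.72 between the same clones, for CTSB 0.57 between clones 2 and 6, and for TPP1 0.53 between clones 3 and 6. For CTSL it was 0.45 between clones 2 and 6, for CTSC 0.44 and for CTSA -0.44 between clones 1 and 6, and for CTSD 0.39 between clones 2 and 3. Every value is the first clone minus the second. Groups of 3 arrays are too small for a search for single arrays that stand apart.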

How the results depend on the processing

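The calls of CTSC (-1.24 to -0.66) and TPP1 (-1.19 to -0.58) held in all 16 alternatives in each clone. Of 576 values of members against the parental line, 536 kept direction and side of the threshold, 25 lost the call, 14 gained it and 1 turned; between clones these were 781, 43, 14 and 26 of 864. No value that turned was called on either side. Turned values were 0.016 for CTSB in clone 3 against parental (renewed quantile normalization), -0.0059 for CTSC, clone 3 against clone 6 (the same), -0.0031 and -0.025 for CTSH, clone 1 against clone 6, and -0.039 and -0.022 for CTSL, clone 3 against clone 6 (quantile and array weights). Leaving out 1 array, the differences that turned ranged, for clone 3 against clone 6, -0.090 to 0.018 for CTSA, -0.0044 to 0.13 for CTSB, -0.038 to 0.070 for CTSC, -0.14 to 0.0074 for CTSD, -0.074 to 0.10 for CTSL. The same ranges were -0.032 to 0.12 for CTSH in clone 1 against clone 2, -0.10 to 0.10 in clone 1 against clone 6 and -0.13 to 0.054 in clone 2 against clone 6, and -0.17 to 0.11 and -0.21 to 0.017 for LGMN in clone 1 against clone 2 and clone 2 against clone 3. The cause was not tested. Members called at an adjusted p below 0.01 numbered 3 (clone 1 against clone 3), 3 (clone 2 against clone 3), 2 (clone 2 against clone 6) and 5 (F test), against 6, 5, 4 and 8. In fits to the arrays compared, which have fewer samples, they numbered 2 (clone 1 against clone 6), 3 (clone 2 against clone 3) and 2 (clone 2 against clone 6). Without 1 array the counts were 4 to 5 for clone 1 against clone 3, 3 to 5 for clone 2 against clone 3 and 2 to 4 for clone 2 against clone 6. For clone 6 against parental they were 3 to 5, where 3 came without parental replicate 3.

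Over all genes, 2092, 2058, 2090 and 2724 were called against the parental line in clones 1, 2, 3 and 6. Without parental replicate 3 the first 3 were 1229, 1265 and 1275, and clone 3 had 1368 without parental replicate 2. At an adjusted p below 0.01 they were 1051, 1079, 1018 and 1556; array weights gave 3448 in clone 1. Between clones that stricter limit gave 1073, 746, 1033, 687 and 522 for clones 1 and 3, 1 and 6, 2 and 3, 2 and 6, and 3 and 6, against 2041, 1540, 1914, 1356 and 1095, and 1548 against 2728 for the F test. Fits to the arrays compared gave 942, 767 and 703 for clones 1 and 6, 2 and 6, and 3 and 6, and clones 1 and 6 had 1014 without clone 6 replicate 3. Clones 1 and 2, with 0 calls, had 1 to 6 in 6 alternatives. Renewed quantile normalization made the splits of higher and lower calls close to even, against 733 and 1359, 664 and 1394, 756 and 1334, and 939 and 1785 in clones 1, 2, 3 and 6. It moved the median of all genes by less than 0.1.

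The replicate block, where same-numbered arrays of clones 1 and 6 pair, called LGMN between them (-0.35, adjusted p = 0.0323) and changed no other member call in that pair. In no other pair of groups were all 3 correlations above 0.1, though clones 1 and 2 came close (0.462, 0.0944 and 0.338). Over all 30 same-numbered pairs, those of clones 1 and 6 included, correlations were -0.129 to 0.462 (median 0.0509), with the own number best in 15. With the block, CTSZ in clone 6 against parental was not called (-0.29, adjusted p = 0.0584). LGMN in clone 3 against parental was called (0.37, adjusted p = 0.0203). CTSS, under the dim limit in every array, has no measured change.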
